A study of Mus musculus with 1 sample.

Results

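Hemoglobin and immunoglobulin transcripts were followed in single cells of mouse colon tumors, as 8 genes of the 32285 in the count table. The 4 hemoglobin genes were Hbb-bs, Hbb-bt, Hba-a1 and Hba-a2, and the 4 immunoglobulin genes were Igkc, Ighg2b, Ighm and Jchain. They were chosen by their UMI counts in these data, across cell groups and across 3 bands of depth, so the levels below are a description of these cells and carry no test. A UMI is a barcode that marks 1 captured transcript molecule, and the depth of a cell is its total number of UMIs.

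The cells came from MC38 tumors, made by a mouse colon adenocarcinoma line grown in C57BL/6J mice. The library was labelled wild type and was taken as the control pool (shNTC, a non-targeting hairpin) of a study on Atp6v0a1 in tumor immunity, in which cells of 5 tumors were mixed in equal proportions. The mice were female and 4 to 6 weeks old. Tumors were digested with enzymes and red blood cells were lysed before the cells were loaded for 10x Genomics 3' v3.1 sequencing, and the knockdown pool was not analysed here. No cell carries a tag for its tumor, so this was 1 sample without replicates. Every interval below is an exact 95% interval that covers counting error alone. The label names epithelial cells, whereas the clusters also held cells with myeloid, T and NK and fibroblast genes.

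The 5307 called cells summed to 106631000 UMIs, with 511 to 231902 UMIs per cell and a median of 9248. Cells below 2000 UMIs made up 971, those of 2000 to 10000 UMIs 1797 and those above 10000 UMIs 2539. The deepest band held 89.6% of all UMIs and the shallowest 0.955%. Clustering after the removal of 667 cells above 20% mitochondrial UMIs and of 197 cells scored as doublets left 4443 cells in 14 clusters. Of these, 1839 cells were high in Shisal2b and Rhox5, 1583 were myeloid-like, 112 were T and NK-like, 34 were CAF-like (cancer-associated fibroblasts), and 875 in shallow clusters stayed unnamed. Shisal2b is among the marker genes that the study lists for its cell groups.

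Hemoglobin carries oxygen as a tetramer of alpha-globin and beta-globin chains around heme. Maturing red cells fill themselves with its mRNA, lose their nucleus as reticulocytes and then lose the mRNA as well, so that circulating red cells keep little of it. Plasma cells devote most of their protein synthesis to a chosen heavy chain and light chain, which together form a secreted antibody. In droplet sequencing, RNA released from lysed or damaged cells can also be captured beside any cell.

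Hbb-bs and Hbb-bt are neighboring adult beta-globin genes on chromosome 7, at chr7:103826534-103828096 and chr7:103812524-103813996 on the minus strand of GRCm38. Hba-a1 and Hba-a2 are duplicated adult alpha-globin genes on chromosome 11, at chr11:32283511-32284465 and chr11:32296489-32297298 on the plus strand. The copies differed by 1 of 426 coding bases in the alpha pair (C381T, from Hba-a1 to Hba-a2) and by 1 of 441 in the beta pair (C417T, from Hbb-bs to Hbb-bt), counted from the first base of the start codon. The last 90 coding bases before the stop codon, all in exon 3, are shown because they hold both of these differences, marked by the capital letter, and lie near the 3' ends that this chemistry reads. They span chr11:32284299-32284388 and chr11:32297116-32297205 on the plus strand and chr7:103826668-103826757 and chr7:103812659-103812748 on the minus strand.
Hba-a1: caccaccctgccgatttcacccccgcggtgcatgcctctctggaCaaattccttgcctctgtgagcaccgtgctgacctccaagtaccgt
Hba-a2: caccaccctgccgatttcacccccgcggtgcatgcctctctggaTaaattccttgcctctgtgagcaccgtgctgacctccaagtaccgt
Hbb-bs: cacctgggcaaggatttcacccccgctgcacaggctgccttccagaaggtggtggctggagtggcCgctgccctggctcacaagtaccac
Hbb-bt: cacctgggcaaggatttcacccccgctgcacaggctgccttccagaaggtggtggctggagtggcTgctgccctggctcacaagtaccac

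Reads from stretches that both copies share cannot tell the copies apart. This limits the split of UMIs between the copies, and also their sum if such reads were left out. Over the last 400 transcript bases, 71.1% of the 311 windows of 90 bases in Hba-a1 also occurred in Hba-a2, and 65.9% of those in Hba-a2 occurred in Hba-a1. The shares were 48.9% for Hbb-bs in Hbb-bt and 48.6% the other way, so more of the beta-globin ends told the copies apart. Ighg2b shared 0 of 311 such windows with Ighg2c, a related gamma heavy chain gene.

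The promoters of the 4 globin genes (250 bases before to 50 after the start, RefSeq, GRCm38.p6) share 3 of the 4 short motifs searched. Of these, the CCAAT box is shown in capitals within 30 bases. Whether the motifs bear on the presence of these genes in the same barcodes was not tested. The windows lie at chr7:103827987-103828016 and chr7:103813981-103814010 on the minus strand and at chr11:32283572-32283601 and chr11:32296389-32296418 on the plus strand. The box begins 76, 75, 88 and 91 bases before the RefSeq starts. These starts differ from the gene bounds given above, which came from GENCODE. The windows of Hbb-bs and Hba-a1 therefore lie within those bounds, and that of Hbb-bt lies partly within them.
Hbb-bs: ccctggtaagggCCAATctgctcacacagg
Hbb-bt: ccctggcattggCCAATctgctcagagagg
Hba-a1: agcacaaaccagCCAATgagaactgctcca
Hba-a2: agcacaaaccagCCAATgagaactgctcca

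The Hba-a1 and Hba-a2 promoters were identical over 297 of 297 bases once shifted by 3. Motifs were searched on both strands. The CCAAT motif (read as ATTGG on the other strand) occurred in all 4 globin promoters and in 37.4% of all 32851 promoters of that length. The CACCC motif (GGGTG on the other strand) and the TATAA motif (TTATA on the other strand) also occurred in all 4, and in 57.5% and 24.9% of all promoters. AGATAA, a form of the GATA motif with TTATCT on the other strand, occurred in Hbb-bs alone among the globin genes and in 11.2% of all promoters. TATAA and its reverse can share letters, so both may match at the same place. The promoter of Jchain held none of the 4 motifs, and 5 of the 8 members were matched in the promoter table.

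The hemoglobin genes summed to 42064 UMIs, or 0.0394% of the library, in 1014 cells. They were concentrated in a few barcodes. A barcode was called hemoglobin-rich when these genes gave at least 10 UMIs and at least 1% of its UMIs, and 12 barcodes met this, or 0.226% of all (0.117 to 0.395). These 12 held 40646 of the hemoglobin UMIs (96.6%). The immunoglobulin genes summed to 20115 UMIs (0.0189%) in 1038 cells, and by the same limits 1 cell was immunoglobulin-rich and held 18289 of them (90.9%).

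**Figure D1:**
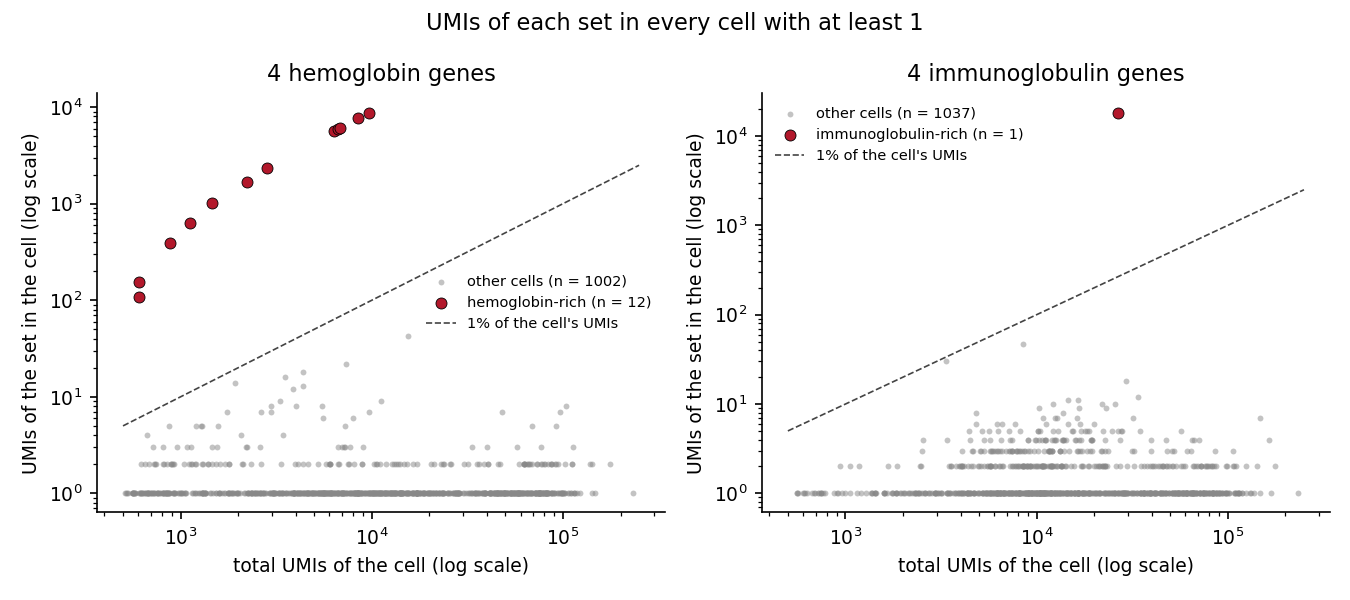
Each point is a cell with at least 1 UMI of the 4 hemoglobin genes (left) or of the 4 immunoglobulin genes (right), by its total UMIs and its UMIs of the set, both on log scales, with the rich cells in red and a dashed line at 1% of the cell's UMIs. The 12 hemoglobin-rich barcodes lie between 603 and 9677 total UMIs and the immunoglobulin-rich cell at 26699, whereas most of the other 1002 and 1037 cells sit at 1 UMI at every depth.

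Between the rich barcodes and all others lay a wide gap. The lowest of the 12 had 107 hemoglobin UMIs, 17.7% of its total, and the highest share outside was 0.728%, from 14 UMIs of 1924. For immunoglobulin, the rich cell stood at 68.5% and the next cell at 0.889%, from 30 UMIs of 3376. By gene, 96.4% of Hbb-bs, 96.7% of Hbb-bt, 97.1% of Hba-a1 and 96.7% of Hba-a2 UMIs lay in the rich barcodes. The same held for 97.1% of Igkc, 96.5% of Ighg2b and 96.3% of Jchain, whereas 0 of the 1236 Ighm UMIs lay in the rich cell.

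The 12 hemoglobin-rich barcodes fell into 5 deep ones, of 6327 to 9677 UMIs, and 7 shallower ones, of 603 to 2819. This grouping was made after their values were seen. In the deep ones Hbb-bs gave 4015, 3499, 2706, 2964 and 3071 UMIs, from the deepest to the least deep, and Hba-a1 gave 1908, 1539, 1326, 1256 and 1221. Hba-a2 gave 1615, 1457, 1205, 1092 and 956 UMIs in the same order. Hemoglobin made up 89.7% to 91.6% of these barcodes. In the 7 others Hbb-bs ranged from 35 to 1276 UMIs, Hba-a1 from 38 to 526 and Hba-a2 from 34 to 463, and the hemoglobin share from 17.7% to 82.8%. All 12 had few genes detected, from 297 to 449, and mitochondrial shares of 0 to 2.15%.

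Hbb-bt, the beta-globin gene with the lower count, separated the deep barcodes from the others. It gave 1247, 1232, 907, 648 and 461 UMIs in the 5 deep ones, in the order above, which was 13.1% to 26.0% of their beta-globin UMIs. In the 7 others it gave 0 to 68 UMIs and 0 to 5.06%, so the 2 sets of barcodes did not overlap in this share. Pooled, the Hbb-bt share was 21.7% (21.1 to 22.2) in the deep barcodes and 2.53% (2.05 to 3.08) in the others. The other proportions were close when pooled. Beta-globin made up 60.5% and 59.5% of hemoglobin UMIs, with intervals of 59.9 to 61.0 and 58.2 to 60.7, and Hba-a1 made up 53.4% and 54.0% of alpha-globin UMIs. In single barcodes, however, the beta-globin share ran from 58.8% to 61.9% in the deep ones and from 32.7% to 76.2% in the others. The Hba-a1 share ran from 51.4% to 56.1% and from 48.1% to 59.6%. Depth moved with the Hbb-bt share, and its part in the result was not tested.

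**Figure D2:**
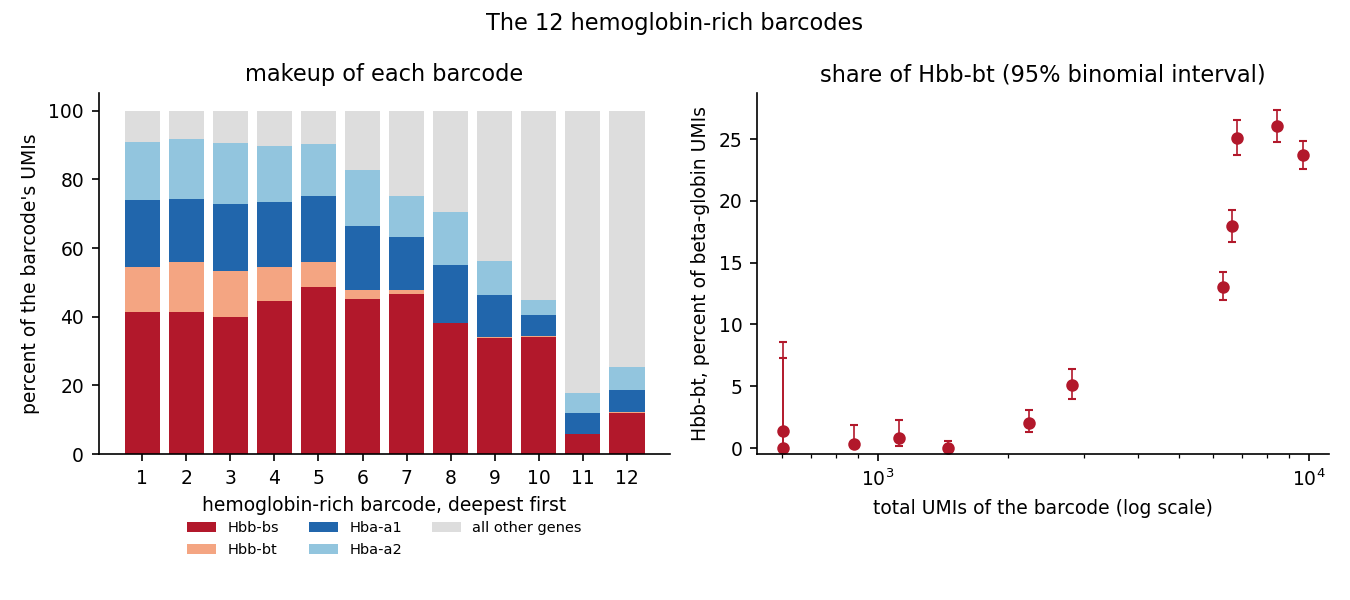
Left, the makeup of each of the 12 hemoglobin-rich barcodes in percent of its UMIs, deepest first; right, Hbb-bt in percent of the beta-globin UMIs of each barcode against its total UMIs (log scale), with exact 95% binomial intervals. The 5 deep barcodes lie at 13.1% to 26.0% and the 7 others at 0 to 5.06%.

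Other red cell genes went along with hemoglobin in the deep barcodes. Of the 6933 UMIs in the 12 barcodes that were not hemoglobin, 88 (1.27%) came from a list of 14 measured erythroid genes, against 0.000839% in all other cells. A list of 8 genes of late red cells gave 229 UMIs (3.30%, against 0.0654% elsewhere), and each of its 8 genes was present. The 5 deep barcodes held 81 of the 88 and 221 of the 229 UMIs.

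Alas2, the enzyme that starts heme synthesis in red cells, gave 75 UMIs in 9 of the 12 barcodes and 4 UMIs in all other cells. Slc4a1, the anion exchanger of the red cell membrane, gave 5 UMIs, with 0 elsewhere. Bpgm, which makes the small molecule that lowers the oxygen affinity of hemoglobin, gave 56 UMIs in the deep barcodes and 0 in the 7 others, and Mkrn1, a ubiquitin ligase, gave 37 and 2. Bnip3l, which clears mitochondria from reticulocytes, gave 30 and 2 UMIs. Fech, the last enzyme of heme synthesis, gave 9 and 0.

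Some genes of the erythroid list were not detected in the 12 barcodes at this depth. Klf1, a transcription factor of erythroid precursors, gave 0 UMIs there and 25 in other cells, and 8 further erythroid genes (Epb42, Hemgn, Rhag, Tmcc2, Sptb, Ermap, Rhd and Kel) also gave 0. Epb42, Rhag and Kel gave 0 UMIs in all other cells as well. With 6933 UMIs that were not hemoglobin, these counts of 0 do not tell a stage of maturation. Markers of other cells were few. The T and NK list gave 0 UMIs from 9 genes, the platelet list 1 UMI, the B cell list 1 and the plasma cell list 1. The myeloid list gave 14 UMIs from 4 of 10 genes, or 0.202% of the UMIs that were not hemoglobin, against 0.390% elsewhere. All 12 barcodes fell into an unnamed shallow cluster led by Hbb-bs, Hba-a1 and Igkc, so no cell type name was given to them.

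The other globin genes were all but absent. Hba-x and Hbb-bh1, which are embryonic chains, and Hbq1b and Hbb-bh2 gave 0 UMIs, which allows a level of up to 0.0281 UMIs per 1000000 (CPM). Hbq1a gave 1 UMI, in a rich barcode, and the embryonic Hbb-y gave 1 outside them.

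The immunoglobulin-rich cell was deep, with 26699 UMIs and 2443 genes. Igkc, the constant part of the kappa light chain (chr6:70726435-70726966, plus strand), gave 11357 UMIs or 42.5% of the cell. Ighg2b, the constant part of the IgG2b heavy chain (chr12:113302965-113307933, minus strand), gave 6596 UMIs or 24.7%. Jchain, which joins antibody units into polymers and is made by plasma cells (chr5:88519809-88527891, minus strand), gave 336 UMIs or 1.26%. Ighm, the constant part of the IgM heavy chain (chr12:113418558-113422730, minus strand), gave 0, which allows up to 0.0164% of the cell's immunoglobulin UMIs.

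The variable genes in this cell were few. Of 348 variable genes in the table, 9 had a UMI anywhere, and 222 of their 227 UMIs lay in this cell. Ighv1-82 gave 71 UMIs and Ighv5-12 gave 3 for the heavy chain, and Igkv10-94 gave 51 and Igkv19-93 gave 1 for kappa. Lambda genes were present too, with 93 UMIs of Iglv1, 3 of Iglv3, 30 of Iglc1, 18 of Iglc3 and 8 of Iglc2.

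Plasma cell genes that the choice of this cell did not use were detected in it. The list gave 59 UMIs from 9 of 10 genes. Xbp1, the transcription factor of the secretory program, gave 22 UMIs, Irf4, a transcription factor of plasma cell formation, gave 10 and Mzb1, a chaperone of antibody assembly, gave 9. Sdc1, the surface marker CD138, and Prdm1, the repressor Blimp1, gave 2 each, and Tnfrsf17 gave 0. Of B cell genes, Cd79a, a chain of the B cell receptor, gave 14 UMIs, Cd79b 2 and Ms4a1 1, and Pax5 gave 0. Slpi, a protease inhibitor, was the third most abundant gene, with 768 UMIs against 274 in all other cells. The T and NK list gave 0 UMIs, and the myeloid list gave 42, of which 40 were Ly6c2.

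Cells with B cell genes were scarce. Besides the immunoglobulin-rich cell, 2 cells had at least 5 UMIs of Cd79a, Ms4a1 and Pax5 together, and clustering had placed both among the myeloid-like cells. The deeper, of 8483 UMIs, had 47 UMIs of Ighm, 57 of Iglc2, 41 of Iglc3 and 32 of Cd79a, with 0 of Igkc. The other, of 3376 UMIs, had 26 UMIs of Igkc, 4 of Ighm, 6 of Ighd, the constant part of IgD, and 15 of Cd79a. Each had UMIs of 7 of the 8 genes of the B cell list. The 47 and 26 UMIs were the highest counts of Ighm and of Igkc outside the rich cell.

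Outside the rich barcodes, hemoglobin UMIs were thinly spread over many cells. There were 1418 of them in 1002 of 5295 cells, of which 837 had 1 UMI, 112 had 2, 24 had 3 or 4 and 29 had 5 or more. By gene, Hbb-bs gave 741 UMIs in 576 cells, Hbb-bt 155 in 136, Hba-a1 262 in 217 and Hba-a2 260 in 223. The 29 cells with 5 or more held 282 UMIs, 19.9% of those outside. They were of 875 to 103631 UMIs and had 1 UMI of Alas2 in all. Of them 14 were unnamed, 9 were Shisal2b- and Rhox5-high and 2 were myeloid-like. The highest count, 43 UMIs, came from a Shisal2b- and Rhox5-high cell of 15483 UMIs with 28 of Hbb-bs, 7 of Hba-a1, 8 of Hba-a2 and 0 of Hbb-bt.

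Over the 3 bands of depth the number of hemoglobin UMIs per cell lay within overlapping intervals. It was 0.269 (0.237 to 0.304) below 2000 UMIs, 0.278 (0.254 to 0.303) at 2000 to 10000 and 0.260 (0.241 to 0.281) above 10000, and 18.0%, 17.5% and 20.2% of cells had at least 1. In 10 finer bins it was not flat, with 0.184 (0.143 to 0.234) below 800 UMIs, 0.335 (0.286 to 0.389) at 2000 to 4000, 0.204 (0.168 to 0.245) at 20000 to 40000 and 0.486 (0.397 to 0.589) above 80000. The mean depth of the bands meanwhile differed by 35.9 times. In UMIs per 1000000 UMIs of the cells (CPM), the levels were 257, 49.3 and 6.92, so the shallowest band stood 37.1 times (32.0 to 42.9) above the deepest. All 4 genes followed this order, with ratios of 35.9 for Hbb-bs, 52.9 for Hbb-bt, 40.8 for Hba-a1 and 29.99 for Hba-a2. Per cell, the deepest band had 0.967 times (0.837 to 1.12) the UMIs of the shallowest. The bands held unlike mixes of cell groups. Below 2000 UMIs, unnamed cells gave 226 of the 260 hemoglobin UMIs, or 0.321 per cell (0.280 to 0.365). At 2000 to 10000 UMIs they gave 0.810 per cell (0.671 to 0.969). Cells above the mitochondrial limit gave 0.129 (0.0811 to 0.196) and 0.235 (0.191 to 0.286) in these 2 bands.

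Over the 3 bands of all cells, the 3 immunoglobulin genes of the rich cell differed from hemoglobin in their UMIs per cell. Outside that cell, Igkc, Ighg2b and Jchain together gave 0.0391 UMIs per cell below 2000 UMIs (0.0277 to 0.0537), 0.0762 at 2000 to 10000 (0.0640 to 0.0901) and 0.164 above 10000 (0.148 to 0.18). The deepest band thus had 4.18 times (2.99 to 5.99) the UMIs per cell of the shallowest, while its CPM was lower, at 4.35 against 37.3, a ratio of 8.59 (5.99 to 11.99). Ighg2b went from 0.00721 to 0.0760 UMIs per cell and Igkc from 0.0257 to 0.0851. Jchain gave 6 UMIs in each of these bands. Counting genes with at least 20 UMIs, 7 of the 7 members that could be compared had a CPM at least 2 times as high in the shallowest band as in the deepest, where 25.7% of all genes had. The choice of the members had used this contrast.

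Within named groups the shallowest band held too few cells to compare the genes. Among Shisal2b- and Rhox5-high cells, 39 lay below 2000 UMIs and gave 8 hemoglobin UMIs, 0.205 per cell (0.0886 to 0.404), against 0.2999 (0.273 to 0.328) in the 1554 above 10000. Each gene had 0 to 4 UMIs there, and 3 of the 7 members compared had a CPM ratio of at least 2, against 31.2% of all genes. Among myeloid-like cells, 32 lay below 2000 UMIs and gave 2 hemoglobin UMIs, and 1 of the 6 members compared passed that ratio, against 24.6% of all genes. Myeloid-like cells of 2000 to 10000 UMIs and above 10000 UMIs had 0.191 (0.163 to 0.223) and 0.189 (0.158 to 0.224) hemoglobin UMIs per cell. For Igkc, Ighg2b and Jchain together these cells had 0.0956 (0.0759 to 0.119) and 0.0938 (0.0725 to 0.119). The first of these 2 values includes 26 Igkc UMIs of a cell with B cell genes. In Shisal2b- and Rhox5-high cells the 3 genes gave 0.0528 (0.0281 to 0.0904) and 0.188 (0.167 to 0.211) in the same bands.

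Over all cells together, Ighm followed a course of its own, with its highest CPM at middle depth. It gave 0.0206 UMIs per cell below 2000 UMIs, 0.274 at 2000 to 10000 and 0.285 above 10000, and its CPM was 19.6, 48.7 and 7.57. In finer bins it was highest per cell at 10000 to 20000 UMIs, with 0.451 (0.410 to 0.494), and gave 0.0927 (0.0723 to 0.117) at 40000 to 80000. Over the same bins hemoglobin gave 0.228 and 0.282, and the other 3 immunoglobulin genes 0.101 and 0.197. Within myeloid-like cells, Ighm per cell rose over the 3 bands. It gave 0.0938 (0.0193 to 0.274), 0.469 (0.424 to 0.517) and 0.727 (0.666 to 0.793). Shisal2b- and Rhox5-high cells gave 0 (up to 0.0769), 0.0447 (0.0223 to 0.0800) and 0.0862 (0.0722 to 0.102), with overlapping intervals. The median depths of these groups were 9028 and 38321, and the part of this mix in the course over all cells was not tested. Across the cells outside the rich ones, Spearman correlations with depth were 0.0467 for hemoglobin (5295 cells), 0.192 for Igkc, Ighg2b and Jchain and 0.0518 for Ighm (5306 cells each). All cells share 1 library, and the counts are part of the depth.

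**Figure D3:**
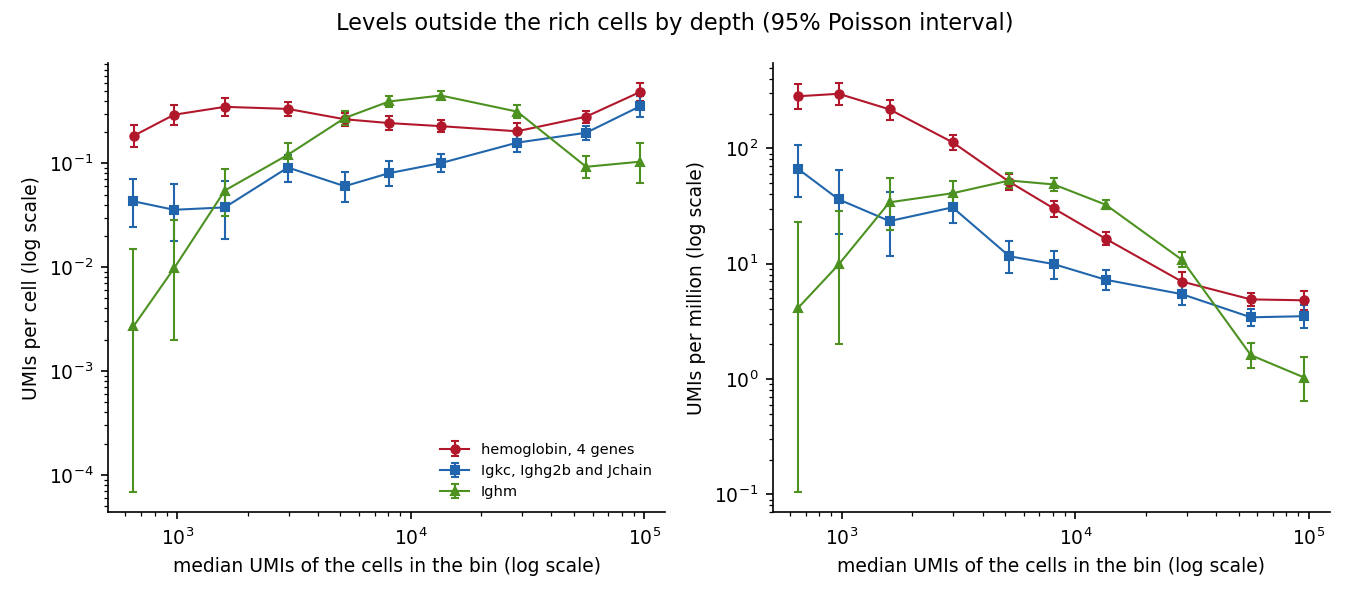
UMIs per cell (left) and CPM (right) of the hemoglobin genes, of Igkc, Ighg2b and Jchain, and of Ighm in 10 bins of cells by depth, without the rich cells, on log scales with exact 95% Poisson intervals. Hemoglobin per cell stays between 0.184 and 0.486 in every bin, and Ighm peaks at 0.451 in the bin of 10000 to 20000 UMIs.

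The makeup of the hemoglobin UMIs outside was near that of the rich barcodes. Beta-globin made up 63.2% (60.6 to 65.7) outside and 60.3% (59.8 to 60.8) in the 12 barcodes. Hbb-bt made up 17.3% of beta-globin UMIs (14.9 to 19.9) against 18.7% (18.2 to 19.2), and Hba-a1 50.2% of alpha-globin UMIs (45.8 to 54.6) against 53.5% (52.7 to 54.3). By band, the Hbb-bt share outside was 19.3% below 2000 UMIs, 20.6% (16.3 to 25.4) at 2000 to 10000 and 13.9% (10.7 to 17.7) above. All 3 lay above the 2.53% of the 7 shallower rich barcodes. The interval of the deepest band lay below the pooled interval of the 5 deep barcodes (21.1 to 22.2), and those of the other bands overlapped it. That pooled interval leaves out the spread between barcodes. The 5 ran from 13.1% to 26.0%, a range that includes the value of the deepest band.

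The makeup of the immunoglobulin UMIs outside differed from that of the rich cell. Igkc made up 62.1% (61.4 to 62.8) of them in the rich cell and 18.6% (16.9 to 20.5) outside, where Ighm made up 67.7% (65.5 to 69.8). Among Igkc and Ighg2b UMIs alone, the Ighg2b share was 36.7% (36.0 to 37.5) in the rich cell and 41.1% (37.0 to 45.2) outside. It was 27.2% (19.9 to 35.5) at 2000 to 10000 UMIs and 47.2% (42.3 to 52.2) above 10000. The first of these values rests in part on a single cell with B cell genes, which gave 26 of the 99 Igkc UMIs there. Jchain made up 2.87% of Jchain and Igkc UMIs in the rich cell and 3.68% (1.98 to 6.22) outside.

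**Figure D4:**
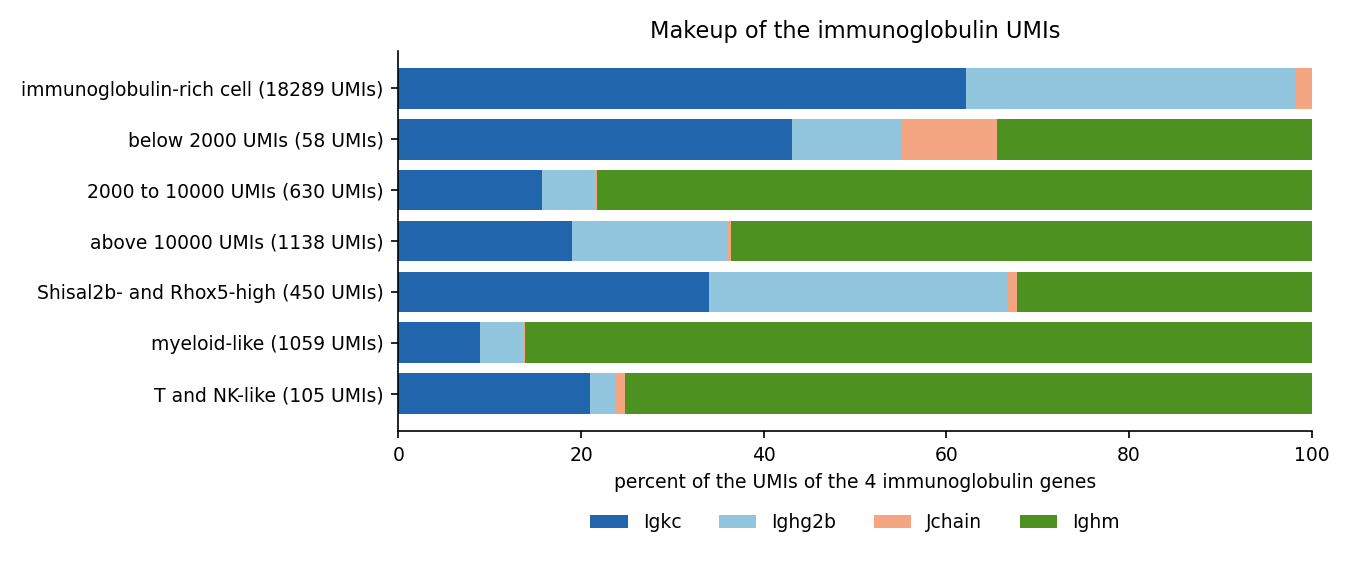
Share of Igkc, Ighg2b, Jchain and Ighm among the UMIs of the 4 immunoglobulin genes, in percent, in the immunoglobulin-rich cell, in the 3 depth bands without it and in 3 cell groups, with the number of UMIs behind each bar. Ighm is at 0 in the rich cell, at 32.2% in Shisal2b- and Rhox5-high cells and at 86.1% in myeloid-like cells.

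Between cell groups, the order of the hemoglobin levels depended on the scale. Shisal2b- and Rhox5-high cells, with a median depth of 38321 UMIs, had 0.307 hemoglobin UMIs per cell (0.282 to 0.334), and 21.5% of them had at least 1. Myeloid-like cells, with a median of 9028, had 0.188 (0.167 to 0.210) and 16.0%. T and NK-like cells had 0.107 (0.0554 to 0.187) and CAF-like cells 0.147 (0.0477 to 0.343), so the intervals of these last 3 groups overlapped. In CPM the order of the first 2 was turned, with 7.37 against 19.01, a ratio of 2.58 (2.23 to 2.97) for myeloid-like over Shisal2b- and Rhox5-high cells. Per cell the ratio was 0.611 (0.529 to 0.704). With each cell thinned to 1000 UMIs, 1.20% of Shisal2b- and Rhox5-high cells (0.754 to 1.81, 8 shallower cells left out) and 2.21% of myeloid-like cells (1.55 to 3.06, 1 left out) had a hemoglobin UMI.

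At matched depth the result rested on a few cells of a single cluster. Among cells of 2000 to 10000 UMIs, where the median depths were 5945 and 5273, the hemoglobin CPM of myeloid-like cells was 0.476 times (0.366 to 0.622) that of Shisal2b- and Rhox5-high cells. A shallow Shisal2b- and Rhox5-high cluster of 151 cells led by Gm15991 and Mir99ahg had 0.775 hemoglobin UMIs per cell (0.641 to 0.929), with a median depth of 4189. The cell with 43 UMIs was in it, though deeper than that band, and without this cell the value was 0.493 (0.387 to 0.619). Within the band, 3 of its 90 cells held 45 of their 60 hemoglobin UMIs, and 16.7% of the 90 had at least 1, against 17.9% of the 156 other Shisal2b- and Rhox5-high cells there. Without this cluster the ratio within that band was 0.976 (0.662 to 1.48). Above 10000 UMIs it was 2.06 (1.68 to 2.499), at median depths of 13640 and 44703. Cells above the mitochondrial limit had 0.208 hemoglobin UMIs per cell and 39.1 CPM, and unnamed cells, with a median depth of 961, had 0.402 and 249 CPM. Among the unnamed cells, 391 shared the cluster of the rich barcodes and had 0.645 per cell (0.567 to 0.729), and 29.9% of them had at least 1.

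**Figure D5:**
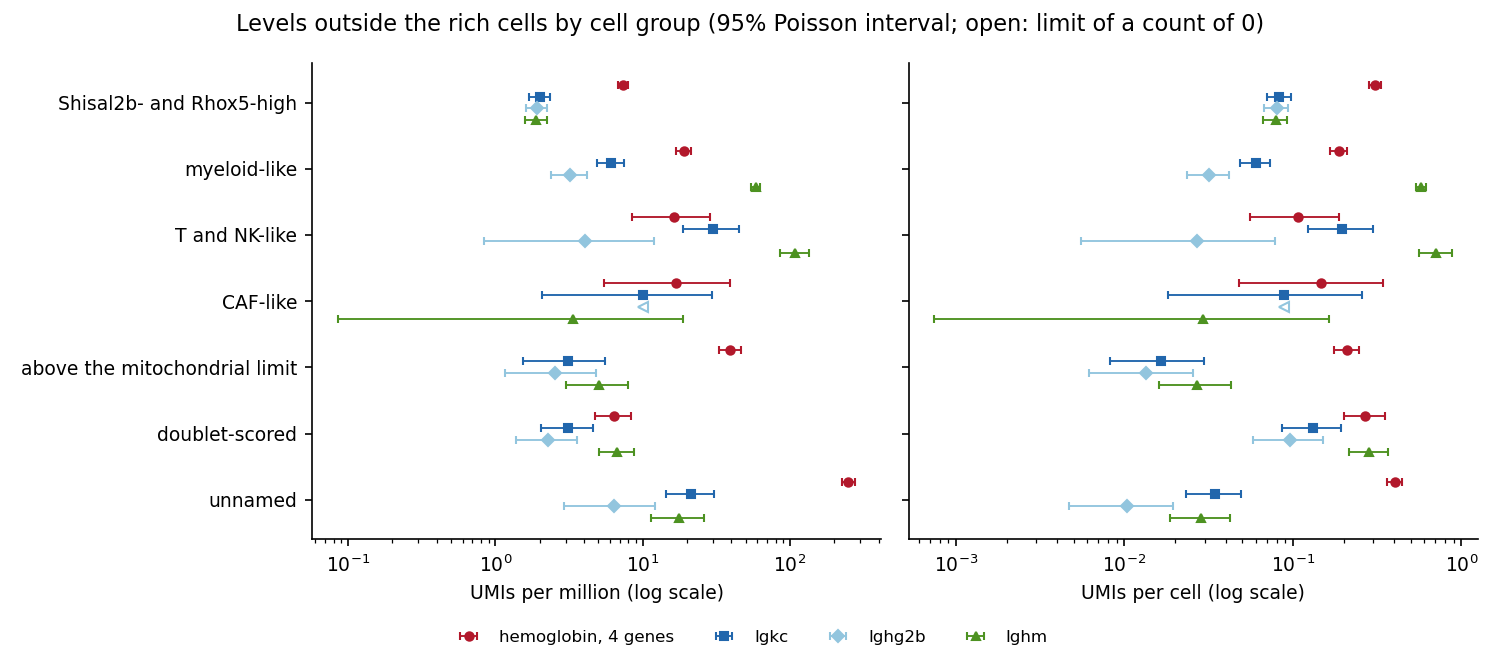
CPM (left) and UMIs per cell (right) of the hemoglobin genes, Igkc, Ighg2b and Ighm in 7 groups of cells without the rich cells, on log scales with exact 95% Poisson intervals, and an open symbol at the limit that a count of 0 allows. Ighm stands at 58.4 and 107 CPM in myeloid-like and T and NK-like cells and at 1.89 CPM in Shisal2b- and Rhox5-high cells.

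Ighm differed most between groups. Its level was 107 CPM (85.1 to 134) in T and NK-like cells, 58.4 (54.6 to 62.3) in myeloid-like cells and 1.89 (1.60 to 2.23) in Shisal2b- and Rhox5-high cells. The share of cells with at least 1 UMI was 28.6%, 24.9% and 5.003%, at median depths of 5285.5, 9028 and 38321. The ratio of myeloid-like to Shisal2b- and Rhox5-high cells was 30.9 (25.9 to 37.0) in CPM and 7.31 (6.13 to 8.77) per cell. It was 9.64 (5.33 to 19.5) among cells of 2000 to 10000 UMIs and 27.5 (22.7 to 33.6) above 10000. Thinned to 1000 UMIs, 9.82%, 4.87% and 0.273% of the cells had an Ighm UMI. T and NK-like cells exceeded myeloid-like cells by 1.84 times (1.44 to 2.32) in CPM, while per cell the ratio was 1.22 (0.960 to 1.54).

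The other immunoglobulin genes differed less. Igkc stood at 29.9 CPM in T and NK-like cells, 6.08 in myeloid-like cells and 1.996 in Shisal2b- and Rhox5-high cells. Ighg2b stood at 4.08, 3.20 and 1.92 CPM, and its highest count in any cell outside the rich cell was 2. For Igkc, Ighg2b and Jchain together, the ratio of myeloid-like to Shisal2b- and Rhox5-high cells was 2.37 (1.93 to 2.89) in CPM and 0.560 (0.457 to 0.684) per cell, and 1.66 (0.921 to 3.26) among cells of 2000 to 10000 UMIs. Igkc in T and NK-like cells was 4.92 times (2.95 to 7.89) that in myeloid-like cells, and 2.53 times (1.34 to 4.51) among cells of 2000 to 10000 UMIs. Of the 61 Igkc UMIs of myeloid-like cells in that band, 26 came from the B-gene cell described above. Without the 2 cells with B cell genes, these ratios were 6.77 (3.99 to 11.1) and 4.404 (2.23 to 8.28), and that of the 3 genes for myeloid-like over Shisal2b- and Rhox5-high cells was 1.95 (1.56 to 2.41), and 1.13 (0.611 to 2.26) within the band. Of the 7 members with enough UMIs to compare, 6 had a CPM at least 2 times as high in myeloid-like as in Shisal2b- and Rhox5-high cells, where 21.1% of 13743 genes had, and Ighg2b, at 1.67, did not. This contrast too had served to choose the members.

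Within the myeloid-like cells, Ighm was present in every cluster. It stood at 46.8 CPM in the 1108 cells led by Mmp12 and Arg1, at 97.3 in the 285 cells led by Chil3 and Ly6c2, at 84.5 in a cluster of 167 and at 70.9 in the 23 cells led by Retnla and Cbr2. The second of these held the B-gene cell with 47 UMIs. Among Shisal2b- and Rhox5-high cells, Ighm stood at 0.743 CPM (0.535 to 1.004) in the largest cluster, of 1008 cells, and at 6.92 (5.58 to 8.49) in the 452 cells led by Ogn and Aspn. T and NK-like cells with a UMI of Cd3e, Cd3d or Cd3g, chains of the T cell receptor complex, had 116 CPM of Ighm (90.2 to 147, 101 cells) and those without had 73.4 (36.6 to 131, 11 cells).

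Cells with Ighm were checked for other genes of B cells. Without the 2 cells with B cell genes, 588 cells held 1185 Ighm UMIs, of which 252 cells had at least 2, 47 had at least 5 and the highest had 18. Of the 588, 392 were myeloid-like, 92 were Shisal2b- and Rhox5-high and 32 were T and NK-like. Of B cell genes, Cd79a and Ms4a1 were found in 1 of them each and Pax5 in 0. Cd79b was found in 80 (13.6%, against 4.24% of the 4716 other cells) and Ebf1 in 94 (15.99%, against 28.3%), and the depths of the cells were not matched for this. There was an Igkc UMI in 29 of the 588, and a lambda constant gene or a variable gene in 0. Outside the rich cell the variable genes gave 5 UMIs in the whole library, so such a 0 says little about these cells. The other heavy chain constant genes gave far fewer UMIs over the whole library, with 30 for Ighg2c, 20 for Ighg1, 16 for Ighd, 11 for Igha, 1 for Ighg3 and 0 for Ighe.

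Few genes shared the pattern of either set over the 5307 cells. By Pearson correlation of log levels, the genes most like hemoglobin included Alas2 (0.4995), AY036118 (0.200), Gm42418 (0.160) and Bpgm (0.138). The immunoglobulin genes were most like Cd52 (0.281), Ptpn18 (0.262), Iglc1 (0.255), Coro1a (0.254) and Igkv10-94 (0.254). The values for Alas2, Iglc1 and Igkv10-94 rest on the rich cells, which held 75 of 79, 30 of 38 and 51 of 51 of their UMIs.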

How the data were processed

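The authors deposited UMI counts per gene and called cell, not normalized, from 1 library made with 10x Genomics 3' chemistry (v3.1). Cell Ranger is given as 5.0.1 in the file header but as V3 in the study's methods, with GRCm38/mm10. The submitters' processing notes also list FastQC and Seurat. No other sample was analysed here.

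The 8 members, the marker lists and the choices below were made with earlier results of these data known. The named genes were the members, the other globin and immunoglobulin constant genes, the genes of the lists (14 erythroid, 8 reticulocyte, 8 B cell, 10 plasma cell and 5 platelet genes measured), up to 3 variable genes per chain in the immunoglobulin-rich cell, the 5 genes most correlated with each set, and comparators for released RNA. Other genes named here, such as Slpi, were chosen after their values were seen. Some genes of these lists are not reported here. Ahsp and Hbb-bh0 had no row in the table.

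Levels were summed UMIs per 1000000 UMIs or per cell, with exact Poisson, conditional or Clopper-Pearson intervals, and a limit of 3 counts where a count was 0. With 1 library, no test was run. All called cells entered, save for the groups. For these, cells under 200 genes or over 20% mitochondrial UMIs were dropped, and doublets were removed by a score from 2 simulated doublets per cell, at 0.8% per 1000 cells. Leiden clustering at a resolution of 0.5 used 2000 variable genes, 30 principal components and 20 neighbors. To take the name of a list, a cluster needed 3 or more list genes raised 2 times or more, and 2 or more of them present in 50% or more of its cells. A cluster was called Shisal2b- and Rhox5-high when both genes stood at least 5 times above myeloid-like cells. Clusters below 0.333 of the library's median depth needed a list gene among their leading genes. Such names can differ from those of the study. The steps were tested on simulated data.

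Gene positions came from GENCODE M21 and promoters from RefSeq. Computation used numpy 2.4.6, pandas 2.3.3, scipy 1.17.1, scikit-learn 1.9.0, leidenalg 0.10.2, igraph 0.11.9 and matplotlib 3.10.9 under Python 3.11.15. Alternatives were other cell filters, limits for rich cells, depth bands, clustering settings, means over cells and thinning. Levels per cell, ratios within depth bands and ratios without the shallowest Shisal2b- and Rhox5-high cluster, the highest hemoglobin cell or the cells with B cell genes were chosen after seeing the data.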

Additional observations from a re-analysis of the deposited data

How the results depend on the processing

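Of the ratios of the shallowest to the deepest band, hemoglobin at 37.1 became 59.0 for cells below 1000 against above 20000 UMIs, 365 with the rich barcodes kept, 26.8 as a mean over cells and 1.03 per cell. The immunoglobulin set at 4.78 became 8.52 for the wider bands and 2.61 as a mean over cells, and was reversed with the rich cell kept, at 0.280, and per cell, at 0.133. With the rich cells kept, the beta-globin share of 63.2% became 60.4% and the Igkc share of 18.6% became 58.2%. Requiring at least 500 genes left 0 of the 12 hemoglobin-rich barcodes, which had at most 449. Limits of 5 UMIs and 0.5% gave 14 of them, and 3 immunoglobulin-rich cells in place of 1. The hemoglobin ratio of myeloid-like to Shisal2b- and Rhox5-high cells, 2.58, was 3.29 at a mitochondrial limit of 10%, 1.30 as a mean over cells and 1.19 for the summed UMIs of cells thinned to 1000. Among alternatives chosen after seeing the data, it was 2.06 above 10000 UMIs and 3.21 without the shallowest cluster, and was reversed per cell (0.611) and at 2000 to 10000 UMIs (0.476). Without that cluster, the ratio in this band was 0.976, with an interval of 0.662 to 1.48 that lies on both sides of equal levels. The immunoglobulin ratio of 11.5 was 10.3 with at least 500 genes, 9.77 with doublets kept and 9.43 as a mean over cells. Chosen after seeing the data, it was 2.73 per cell, 5.32 at 2000 to 10000 UMIs, 4.96 there without the shallowest cluster and 9.78 above 10000 UMIs. The causes of these moves were not tested. The other alternatives, 12 and 13 for these last ratios and 4 or 5 for each of the other results, kept the direction and stayed within the spread of counting. No paired analysis was possible because the series holds 1 library here. Depth limits genes outside the rich cells, where most counts are 1 UMI.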

Other observations

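Abundant genes of other cell types gave a scale for the levels outside the rich cells. Lyz2, the lysozyme gene of macrophages, stood at 7329 CPM in myeloid-like cells. In Shisal2b- and Rhox5-high cells it gave 0.410 UMIs per cell below 2000 UMIs, 0.825 at 2000 to 10000 and 2.06 above 10000. Apoe, the apolipoprotein E gene, gave 1.95, 3.51 and 10.6 UMIs per cell in the same bands, C1qa 0.179, 0.663 and 1.72, C1qb 0.359, 0.667 and 1.53 and Cd74 0.769, 0.980 and 3.07. All 5 genes had more UMIs per cell in the deepest band. Hemoglobin had 0.205, 0.370 and 0.2999 (0.273 to 0.328) in these cells. The middle value rests in part on the shallow cluster described above, and without it was 0.199 (0.135 to 0.282, 156 cells). In myeloid-like cells, Shisal2b gave 0.125, 0.137 and 0.172 UMIs per cell and Rhox5 gave 0.375, 0.361 and 0.443, beside 0.0625, 0.191 and 0.189 for hemoglobin.

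Igkc, Ighg2b or Jchain was found in 4.60% of cells with a hemoglobin UMI and in 3.41% of those without below 2000 UMIs, in 4.78% and 6.03% at 2000 to 10000, and in 16.5% and 13.4% above 10000. The intervals overlapped in each band (13.4 to 20.04 and 11.9 to 14.95 in the deepest), and in the deepest the cells with hemoglobin were deeper, with a median of 38558.5 against 25831 UMIs.

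An unnamed cluster of 138 shallow cells led by the mast cell protease genes Mcpt2, Cma1 and Mcpt4 had an Ighm level of 33.4 CPM (16.7 to 59.7) from 11 UMIs, and 0 UMIs of Ighg2b.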
